A study of Homo sapiens with 18 samples.

Results

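Integrins are the transmembrane receptors by which cells hold on to the extracellular matrix, and laminins are heterotrimeric matrix proteins that many integrins bind. All genes of both families were taken by symbol from the deposited gene table. The set holds 38 of the 50119 genes: 26 integrin genes (18 α and 8 β subunits) and 12 laminin genes (5 α, 4 β and 3 γ chains). Their messenger RNA was measured by RNA-seq in 18 libraries of osteosarcoma material, 3 libraries in each of 6 groups. Every group started from the same wild-type cell line, which the labels spell Soas-2 and which is described as Saos-2, a human line derived from a bone tumor.

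D-2 was the cells grown flat in two-dimensional culture to day 14. D-3 was the same cells embedded in Matrigel, a basement membrane extract rich in laminin protein, to day 14. DP-3 day 1 and DP-3 were the cells printed in a bioink of methacrylated gelatin and alginate and sampled at day 1 and day 14. FIT was fresh tumor tissue. The cells had been injected in Matrigel under the skin of 4-week-old female BALB/c nude mice, which lack T cells but keep other host cells, and the tumors were taken out 2 weeks later. IT was tumor tissue from such mice cut into pieces and kept on Matrigel to day 14. The tumors had been divided, so IT and FIT libraries may share animals, and no label states which. No label states either that the 3 libraries of a group came from separate cultures or animals, so the p-values below measure the spread among these libraries only.

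Total estimated counts were between 50327345 and 79082786 in 17 libraries and 23721666 in FIT replicate 3. These totals sum estimates that follow coverage and are not numbers of read pairs, so they compare the libraries' depth only with each other. Levels are FPKM, the fragments of a gene scaled by its length and by the size of the library, which allows genes to be compared with each other. The cell line label was checked against genes that mark it. ALPL, the alkaline phosphatase of bone-forming cells for which Saos-2 is known, reached at most 0.148 FPKM in 18 libraries, and SP7 and IBSP, other genes of bone-forming cells, stayed below 0.1 FPKM in every group mean. SPARC, a bone matrix protein, was abundant, at 111 to 289 FPKM. Because ALPL goes against the label, the material is called here the cells labelled Saos-2.

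As background, each integrin is a pair of 1 α and 1 β subunit, and the pair sets the ligand. The α1, α2, α10 and α11 subunits with β1 bind collagen. The α3, α6 and α7 subunits bind laminin. The α5, α8, αV and αIIb subunits bind proteins with an RGD motif such as fibronectin and vitronectin, and the β2 subunit with αL, αM, αX or αD is found on leukocytes. Laminin trimers are named after their chains, and a trimer that holds α3 and β3 anchors epithelia through α6β4 and α3β1.

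In their highest group mean, 9 integrins (ITGA2, ITGA3, ITGA5, ITGA6, ITGA10, ITGAV, ITGB1, ITGB3 and ITGB5) and 6 laminins (LAMA4, LAMA5, LAMB1, LAMB2, LAMB3 and LAMC1) reached 10 FPKM. ITGA1, ITGA4, ITGAE, ITGAX and LAMA3 had a highest group mean between 1 and 10 FPKM. Another 9 integrins (ITGA2B, ITGA7, ITGA8, ITGA11, ITGAD, ITGAM, ITGB4, ITGB6 and ITGB8) and LAMA2 lay between 0.1 and 1 FPKM. ITGA9, ITGAL, ITGB2, ITGB7, LAMA1, LAMB4 and LAMC3 remained below 0.1 FPKM in every group mean and entered none of the tests. The abundant members thus cover some of the β1 and αV integrins and the laminin chains α4, α5, β1, β2, β3 and γ1.

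**Figure D1:**
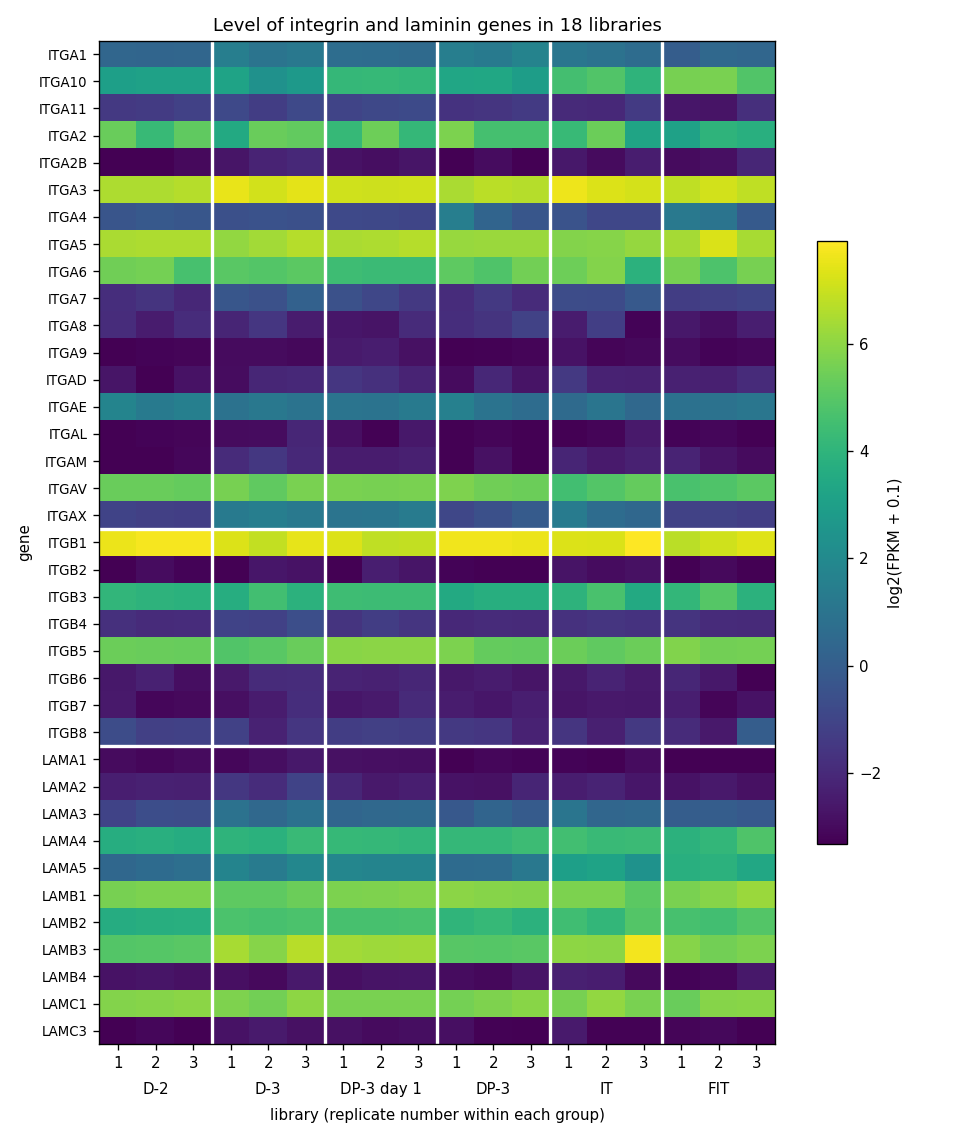
Level of 37 of the 38 genes (rows) in each of the 18 libraries (columns, 3 per group), as log2(FPKM + 0.1) by colour; white lines separate groups, integrins α, integrins β and laminins. ITGB1, ITGA3 and ITGA5 are bright in every library, while ITGA9, ITGAL, ITGB2, ITGB7, LAMA1, LAMB4 and LAMC3 are dark throughout.

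Differential expression was tested in 8 pairs of groups with edgeR's quasi-likelihood test on the estimated counts. A gene was called at a Benjamini-Hochberg adjusted p under 0.05, adjusted over all genes tested, and a change of at least 2-fold. Of the members, 31 were tested in at least 1 comparison and 16 were called in at least 1, with 33 calls out of 222 tests. The comparisons share libraries (FIT in 4 of them), so their calls are not independent.

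Against fresh tumor, D-2 had 5 of 26 tested members called, 3 upregulated and 2 downregulated, where 14.6% of all 19513 tested genes were called (3.83% upregulated and 10.8% downregulated). D-3 had 6 of 30 called, 3 in each direction, against 6.45% of all tested genes (4.29% up, 2.17% down). DP-3 had 5 of 27 called, 3 up and 2 down, against 4.82% of all tested genes (1.66% up, 3.16% down). IT had 0 of 27 called, against 0.0% of 21183 genes. Without an adjustment, 9 of those 27 members and 2693 genes had p under 0.05 for IT against FIT, and DESeq2 called 3 members and 661 genes. The median log2 fold change of the tested members was -0.11 for D-2 (all tested genes -0.09), 0.24 for D-3 (all genes 0.02), -0.01 for DP-3 (all genes -0.06) and 0.09 for IT (all genes 0.01). The count for D-2 was 3 without D-2 replicate 1 or 3, and the count for D-3 was 3 without D-3 replicate 3. All genes called went from 2846 to 1759 and 2107 in these D-2 fits, and from 1399 to 240 in this D-3 fit. For DP-3 the count of members was 2 without DP-3 replicate 1, DP-3 replicate 3 or FIT replicate 1. It was 3 without DP-3 replicate 2 or FIT replicate 2. All genes called went from 965 to 90, 233, 117, 242 and 250 in these DP-3 fits, in the order named.

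Between cultures, D-3 against D-2 had the largest count of the 8, with 7 of 29 members called and all 7 upregulated, where 18.5% of all tested genes were called (14.6% up, 3.95% down). DP-3 against D-3 had 4 of 29 called, 1 up and 3 down, against 9.12% of all genes (1.98% up, 7.15% down). DP-3 against D-2 had 1 of 26 called, upregulated, against 1.04% of all genes (0.722% up, 0.318% down). Over time in the printed tissue, DP-3 against DP-3 day 1 had 5 of 28 called, 3 up and 2 down, against 7.56% of all genes (1.81% up, 5.76% down). As shares of the tested members, the calls were 24.1% in D-3 against D-2, 13.8% in DP-3 against D-3, 3.85% in DP-3 against D-2 and 17.9% in DP-3 against DP-3 day 1. The median log2 fold changes of members were 0.07, 0.02, 0.05 and -0.18 in this order, beside 0.11, -0.05, 0.03 and -0.06 for all tested genes. D-3 against D-2 gave 4 calls without D-3 replicate 1 or 3, and DP-3 against D-2 gave 0 without any of the D-2 replicates. Of all genes, 2139 and 2159 were called in these fits of D-3 against D-2, beside 3746 in the main fit. In DP-3 against D-2, 20, 3 and 17 of all genes were called without D-2 replicate 1, 2 and 3, beside 193. DP-3 against D-3 gave 1 call without D-3 replicate 1 or DP-3 replicate 1 and 0 without D-3 replicate 3. Of all genes, 454, 965 and 329 were called in these fits in that order, beside 1887 in the main fit.

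**Figure D2:**
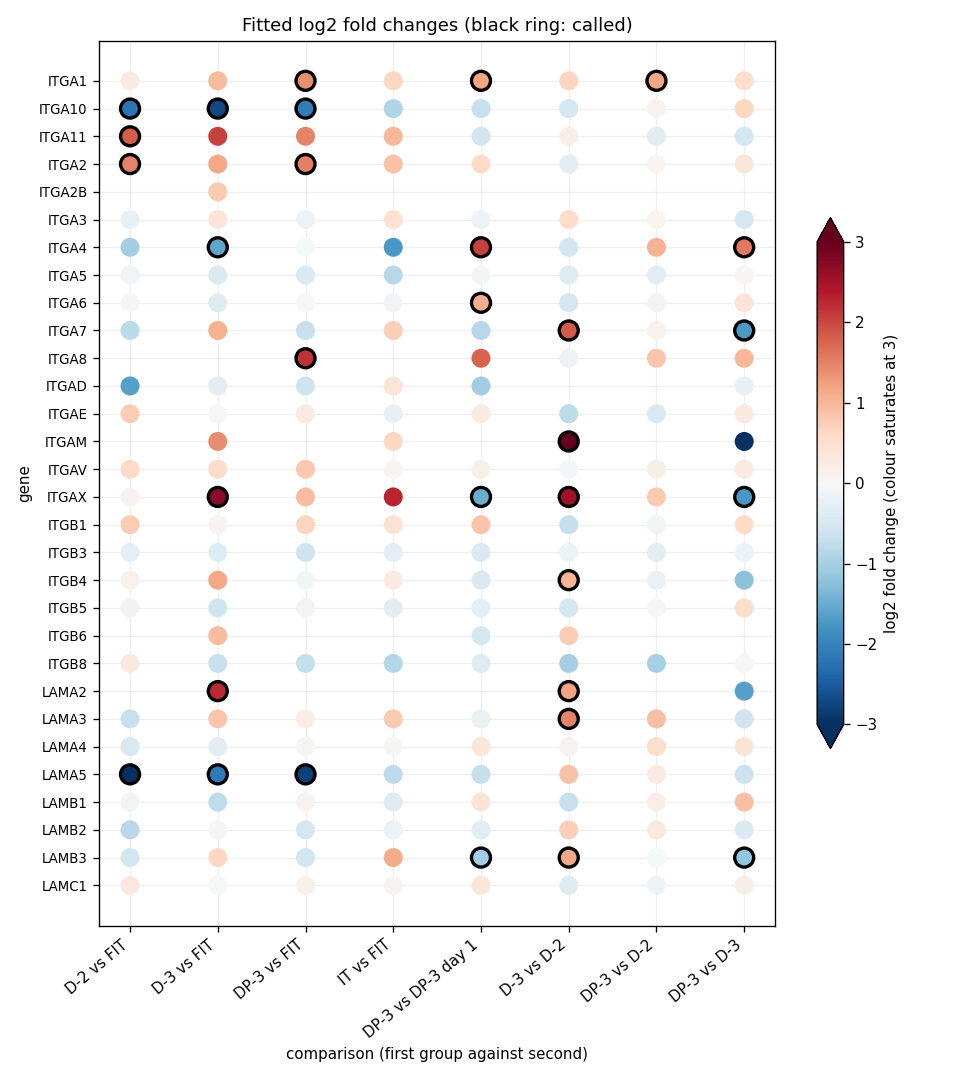
Fitted log2 fold change of 30 tested members (rows) in each of the 8 comparisons (columns), first group against second, by colour; a black ring marks the 31 calls among them and an empty place a gene that was not tested. ITGA10 and LAMA5 are blue with a ring in all 3 comparisons of a 14-day culture of cells with FIT, and the 7 rings of D-3 against D-2 are all red.

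Among collagen receptors, ITGA10 was far above the cultures in fresh tumor. ITGA10 encodes the α10 subunit, which is known from cartilage (ENSG00000143127, chromosome 1, 145891208 to 145910111, minus strand in the deposited coordinates). It measured 49.6, 50.2 and 29.3 FPKM in the 3 FIT libraries and 23.3, 29.5 and 15.9 FPKM in IT. DP-3 day 1 followed with 17.7, 18.6 and 17.3 FPKM. The cultures at day 14 were all lower, with 9.90, 10.1 and 7.64 FPKM in DP-3, 7.96, 8.48 and 8.57 FPKM in D-2 and 9.07, 5.11 and 6.52 FPKM in D-3. The lowest FIT library stood above every culture library of D-2, D-3, DP-3 and DP-3 day 1, but below the highest IT library, and the 3 cultures at day 14 overlapped each other. The log2 fold change against FIT was -2.22 ± 0.22 (SE) in D-2 (edgeR adjusted p = 0.00193), -2.71 ± 0.30 in D-3 (adjusted p = 0.0035) and -2.10 ± 0.24 in DP-3 (adjusted p = 0.00785). All 3 calls held in each of the 6 fits that left out 1 library. DP-3 was also lower than DP-3 day 1 by a log2 change of -0.69 ± 0.10 (adjusted p = 0.0055), which is under 2-fold.

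The other collagen receptors did not share this pattern. ITGA1, the α1 subunit, was highest in DP-3 at 2.73, 2.39 and 3.14 FPKM. It measured 1.21, 1.19 and 1.22 FPKM in D-2, 1.54, 1.45 and 1.37 FPKM in DP-3 day 1 and 0.893, 1.28 and 1.22 FPKM in FIT. No DP-3 library overlapped with those 3 groups, while D-3 (2.74, 1.89 and 2.19 FPKM) overlapped with DP-3. ITGA1 was upregulated in DP-3 against DP-3 day 1 (log2 1.19 ± 0.14, edgeR adjusted p = 0.0031), against D-2 (1.17 ± 0.14, adjusted p = 0.0167) and against FIT (1.41 ± 0.21, adjusted p = 0.0161). The first call held without any 1 library. The call against D-2 was lost without D-2 replicate 1, 2 or 3 (adjusted p 0.0761 to 0.0978), and the call against FIT was lost without DP-3 replicate 1, DP-3 replicate 3 or FIT replicate 1 (adjusted p 0.0518 to 0.0590). PELO, a gene on the same strand inside ITGA1, reached 9.70 FPKM, and reads of the 2 genes may not be fully separated.

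ITGA2, the α2 subunit of the main collagen receptor of platelets and epithelia, was lowest in FIT at 8.64, 15.6 and 13.6 FPKM. In D-2 it measured 40.7, 18.8 and 35.7 FPKM and in DP-3 52.4, 23.9 and 24.4 FPKM, neither overlapping with FIT. The libraries within a group differed widely, for example 18.2, 43.5 and 17.7 FPKM in DP-3 day 1, 11.4, 40.9 and 36.9 FPKM in D-3 and 18.8, 42.0 and 9.30 FPKM in IT. ITGA2 was upregulated in D-2 against FIT (log2 1.48 ± 0.34, edgeR adjusted p = 0.0166) and in DP-3 against FIT (1.52 ± 0.36, adjusted p = 0.0434). The D-2 call was lost without D-2 replicate 1 or 3 (adjusted p 0.0564 and 0.0514), and the DP-3 call was lost without any 1 of the 6 libraries, FIT and DP-3 replicates 1, 2 and 3 alike (adjusted p 0.0641 to 0.124). ITGA11, the α11 subunit of fibroblast collagen receptors, stayed at or below 0.481 FPKM. It was 0.262, 0.285 and 0.358 FPKM in D-2 and 0.0620, 0.0505 and 0.182 FPKM in FIT, a log2 difference of 1.83 ± 0.51 (edgeR adjusted p = 0.0331) that was lost without any library but FIT replicate 3, that is without FIT replicate 1 or 2 or any D-2 replicate (adjusted p 0.0723 to 0.0987).

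**Figure D3:**
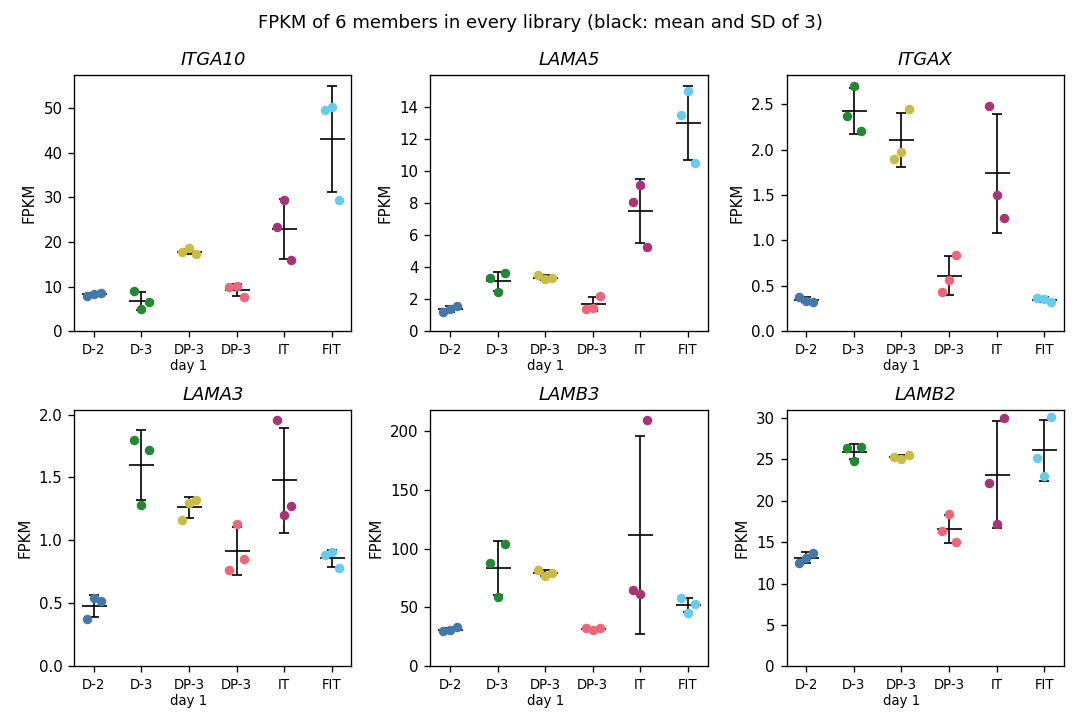
FPKM (linear axis from 0) of 6 members in every library; coloured points are the 3 libraries of a group and black marks their mean and SD. ITGA10 and LAMA5 are highest in FIT and next in IT, ITGAX is high in D-3, DP-3 day 1 and IT, and LAMB3 has 1 IT library at 209 FPKM.

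Among laminin receptors, ITGA3 was the most abundant α subunit in every library except FIT replicate 2, where ITGA5 stood above it. ITGA3, the α3 subunit, measured 93.0, 92.2 and 100.2 FPKM in D-2 and 189, 144 and 174 FPKM in D-3, without overlap. DP-3 day 1 had 136, 134 and 138 FPKM, DP-3 91.2, 108 and 102 FPKM, IT 198, 161 and 148 FPKM and FIT 113, 141 and 116 FPKM. The log2 difference of D-3 from D-2 was 0.58 ± 0.13 (edgeR adjusted p = 0.0133), under 2-fold. ITGA6, the α6 subunit that pairs with β1 or β4, had its lowest group mean in DP-3 day 1 at 21.8, 20.3 and 20.1 FPKM and rose to 35.1, 28.6 and 45.5 FPKM in DP-3 at day 14. This log2 change of 1.09 ± 0.19 (edgeR adjusted p = 0.0090) became 0.85 without DP-3 replicate 3, under 2-fold. In D-2, ITGA6 was 45.3, 46.8 and 24.6 FPKM, and in IT 43.8, 56.4 and 14.7 FPKM, so that replicate 3 stood below the other two in both groups. FIT had 48.8, 27.5 and 48.3 FPKM, with replicate 2 the lower, while D-3 was tight at 33.1, 30.1 and 33.6 FPKM. ITGA7, the α7 subunit of muscle laminin receptors, was low in D-2 (0.179, 0.226 and 0.138 FPKM), DP-3 (0.173, 0.268 and 0.160 FPKM) and FIT (0.316, 0.339 and 0.401 FPKM), but 0.707, 0.588 and 1.04 FPKM in D-3. DP-3 day 1 (0.595, 0.425 and 0.263 FPKM) and IT (0.505, 0.497 and 0.779 FPKM) both overlapped with D-3. It was upregulated in D-3 against D-2 (log2 1.84 ± 0.33, edgeR adjusted p = 0.0068, called without any 1 library) and downregulated in DP-3 against D-3 (-1.73 ± 0.36, adjusted p = 0.0219). The second call was lost without D-3 replicate 1, D-3 replicate 3, DP-3 replicate 1 or DP-3 replicate 3 (adjusted p 0.0596 to 0.0881). BLOC1S1 and METTL7B lie on the other strand of ITGA7 at up to 33.5 and 13.7 FPKM, and whether the counting used strand is not stated.

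Of the RGD receptors, ITGA5 and ITGAV were abundant and called in no comparison, and ITGA8 and ITGA2B were low. ITGA5, the α5 subunit of the fibronectin receptor, measured 91.0, 91.5 and 93.0 FPKM in D-2, 67.9, 83.1 and 101 FPKM in D-3, 91.1, 91.7 and 102 FPKM in DP-3 day 1, 72.7, 74.7 and 75.2 FPKM in DP-3 and 56.9, 58.3 and 69.7 FPKM in IT. FIT had 84.8, 156 and 87.1 FPKM. FIT replicate 2 stood apart from the other two FIT libraries. ITGAV, the αV subunit that pairs with β1, β3, β5, β6 and β8, was 25.6, 27.9 and 34.1 FPKM in FIT and 41.2, 40.9 and 37.9 FPKM in D-2. IT overlapped with FIT at 22.5, 29.6 and 38.3 FPKM, and DP-3 day 1 (50.7, 49.2 and 50.8 FPKM), DP-3 (53.7, 44.2 and 42.6 FPKM) and D-3 (49.7, 36.1 and 50.6 FPKM) were above it in every library. Its log2 differences from FIT were 0.61 ± 0.13 in D-2 (edgeR adjusted p = 0.0121) and 0.80 ± 0.17 in DP-3 (adjusted p = 0.0332), both under 2-fold and without overlap. ITGA8, the α8 subunit that binds nephronectin, never exceeded 0.366 FPKM. It was 0.180, 0.221 and 0.366 FPKM in DP-3 and 0.0676, 0.0320 and 0.0924 FPKM in FIT. This log2 difference of 2.17 ± 0.54 (edgeR adjusted p = 0.0482) was lost without FIT replicate 1 or 2 (adjusted p 0.135 and 0.114). ITGA8 entered this test through its DP-3 libraries alone, since every FIT value was under the minimum of 0.1 FPKM. It did not pass the filter on low values once a DP-3 library was left out. ITGA2B, the platelet αIIb subunit, stayed at or below 0.149 FPKM.

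ITGA4, the α4 subunit that binds VCAM1 and fibronectin, was high in single libraries. It measured 2.73, 1.13 and 0.711 FPKM in DP-3 and 2.23, 1.91 and 0.811 FPKM in FIT. Lower levels were found in the other groups, at 0.568, 0.609 and 0.563 FPKM in D-3, 0.460, 0.449 and 0.404 FPKM in DP-3 day 1 and 0.684, 0.777 and 0.698 FPKM in D-2, with 0.629, 0.425 and 0.433 FPKM in IT. ITGA4 was downregulated in D-3 against FIT (log2 -1.57 ± 0.37, edgeR adjusted p = 0.0393) and upregulated in DP-3 against DP-3 day 1 (2.04 ± 0.46, adjusted p = 0.0203) and against D-3 (1.59 ± 0.44, adjusted p = 0.0452). The groups did not overlap in these 3 comparisons, but the lowest DP-3 and FIT libraries lay close to the lower group. The call against FIT was kept without FIT replicate 3 alone and lost without D-3 replicate 1, 2 or 3 or FIT replicate 1 or 2 (adjusted p 0.0742 to 0.149). The call over time was lost without DP-3 day 1 replicate 1, 2 or 3 (adjusted p 0.0665 to 0.0760). DP-3 against D-3 was called without DP-3 replicate 3 alone and lost without D-3 replicate 1, 2 or 3 or DP-3 replicate 1 or 2 (adjusted p 0.0636 to 0.151), with a log2 change of 0.88 when DP-3 replicate 1, the highest, was left out.

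Of the leukocyte subunits, ITGAX was the only 1 of the 5 α genes ITGAL, ITGAM, ITGAX, ITGAD and ITGAE to be called in more than 1 comparison. ITGAX encodes αX, known as CD11c of dendritic cells and macrophages. It measured 0.379, 0.334 and 0.329 FPKM in D-2 and 0.368, 0.361 and 0.324 FPKM in FIT, 2 groups that overlapped. In D-3 it was 2.37, 2.70 and 2.20 FPKM, in DP-3 day 1 1.90, 1.97 and 2.45 FPKM and in IT 2.48, 1.49 and 1.24 FPKM, while DP-3 at day 14 lay between with 0.433, 0.561 and 0.846 FPKM. Neither D-3, DP-3 day 1 nor IT overlapped with D-2, DP-3 or FIT. ITGAX was upregulated in D-3 against D-2 (log2 2.54 ± 0.17, edgeR adjusted p = 0.000760) and against FIT (2.70 ± 0.24, adjusted p = 0.0017). It was downregulated in DP-3 against DP-3 day 1 (-1.49 ± 0.29, adjusted p = 0.0127) and against D-3 (-1.75 ± 0.30, adjusted p = 0.0129). The first 3 of these calls held without any 1 library, and the last was lost without D-3 replicate 3 (adjusted p = 0.0519).

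In IT against FIT, ITGAX had the lowest p of all members, with a log2 difference of 2.28 ± 0.33 and an edgeR adjusted p of 0.131. It was called there by DESeq2 (adjusted p = 5.4e-09), in 1 edgeR fit of all 18 libraries (adjusted p = 0.000552) and in the edgeR fit with no filter (adjusted p = 0.0239). ITGB2, which encodes the only known β partner of αX, stayed at or below 0.0927 FPKM in all 18 libraries. ITGAM, the αM subunit, was 0.159, 0.252 and 0.145 FPKM in D-3 and listed at 0 in D-2 replicates 1 and 2 and at 0.0140 FPKM in replicate 3. It was called in D-3 against D-2 (edgeR adjusted p = 0.0158) without a usable fold, since the D-2 level lies near the detection limit. ITGAM entered this test through its D-3 libraries alone, and it did not pass the filter on low values once a D-3 library was left out. ITGAL reached at most 0.130 FPKM and ITGAD 0.263 FPKM. ITGAE, the αE subunit, was 3.29, 2.34 and 2.82 FPKM in D-2 against 1.73, 1.78 and 2.04 FPKM in FIT (log2 0.76 ± 0.17, edgeR adjusted p = 0.0153), under 2-fold, and HASPIN on its other strand reached 8.64 FPKM.

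Markers of leukocytes and macrophages were set beside ITGAX. Of the 12 marker genes, PTPRC, TYROBP and AIF1, which define the lineage, were below 0.1 FPKM in all 6 group means. The summed level of the 12 was 239 to 307 FPKM in D-3, 120 to 125 FPKM in D-2, 148 to 178 FPKM in DP-3 day 1, 161 to 225 FPKM in DP-3, 101 to 111 FPKM in IT and 58.2 to 96.0 FPKM in the FIT libraries. Most of the sum came from LCP1, an actin-bundling protein also known from tumor cells (196 FPKM in D-3 and 71.1 FPKM in D-2), and CD68, a lysosomal protein (70.7 FPKM in D-3 and 42.4 FPKM in D-2).

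The β subunits were led by ITGB1, the common partner of the matrix-binding α subunits. ITGB1 measured 196, 215 and 216 FPKM in D-2, 203, 203 and 192 FPKM in DP-3, 161, 118 and 179 FPKM in D-3, 162, 114 and 119 FPKM in DP-3 day 1, and in the tumor groups 163, 156 and 242 FPKM (IT) and 110, 139 and 164 FPKM (FIT). D-2 and DP-3 did not overlap with D-3, DP-3 day 1 or FIT. Its log2 differences were all under 2-fold: 0.75 ± 0.16 for D-2 against FIT (edgeR adjusted p = 0.0133), -0.71 ± 0.16 for D-3 against D-2 (adjusted p = 0.0150) and 0.86 ± 0.14 for DP-3 against DP-3 day 1 (adjusted p = 0.0078). ITGB5, which pairs with αV, was highest in DP-3 day 1 at 61.1, 63.2 and 61.9 FPKM and lowest in D-3 at 29.5, 32.4 and 40.1 FPKM. The other group means lay between these, with libraries overlapping D-3 in D-2 (42.5, 41.1 and 39.1 FPKM), DP-3 (51.8, 38.2 and 37.4 FPKM), and IT (41.4, 35.8 and 42.3 FPKM) but not in FIT (55.4, 46.1 and 48.0 FPKM). ITGB3, the β3 subunit of the vitronectin receptor, was 21.2, 21.1 and 20.8 FPKM in DP-3 day 1 and 11.4, 13.2 and 13.3 FPKM in DP-3 (log2 -0.46 ± 0.10, edgeR adjusted p = 0.0172), under 2-fold. In FIT it was 17.3, 30.9 and 14.8 FPKM and in IT 15.5, 25.4 and 11.3 FPKM, replicate 2 being the highest in both.

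ITGB4, the hemidesmosome subunit that pairs with α6, was low everywhere. It measured 0.373, 0.351 and 0.558 FPKM in D-3 and 0.197, 0.161 and 0.172 FPKM in D-2, a log2 difference of 1.01 ± 0.30 (edgeR adjusted p = 0.0371). Left-out libraries ended this call in 5 of 6 fits, without D-2 replicate 1, 2 or 3 or D-3 replicate 1 or 3 (adjusted p 0.0502 to 0.117), and GALK1 on the other strand reached 21.9 FPKM. ITGB6 stayed at or below 0.170 FPKM, ITGB7 at or below 0.177 FPKM, and ITGB8 at or below 0.513 FPKM outside FIT replicate 3 (0.895 FPKM).

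**Figure D4:**
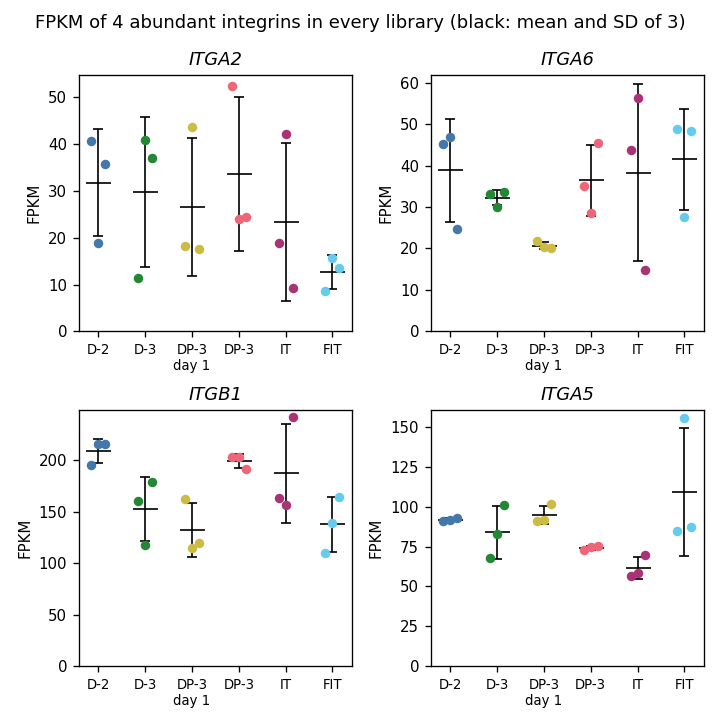
FPKM (linear axis from 0) of 4 abundant integrin genes in every library; coloured points are the 3 libraries of a group and black marks their mean and SD. ITGA2 is spread from 17.7 to 43.5 FPKM within DP-3 day 1, where ITGA5 lies between 91.1 and 102 FPKM.

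Among laminin α chains, LAMA5 was the member with the largest difference from fresh tumor in D-2 and DP-3. LAMA5 encodes the α5 chain, the widespread α chain of adult basement membranes (ENSG00000130702, chromosome 20, 62307955 to 62351989, minus strand). It measured 13.5, 15.0 and 10.5 FPKM in FIT and 8.08, 9.14 and 5.29 FPKM in IT. DP-3 day 1 had 3.52, 3.25 and 3.30 FPKM and D-3 3.30, 2.47 and 3.62 FPKM, 2 groups that overlapped. DP-3 had 1.43, 1.48 and 2.18 FPKM and D-2 1.23, 1.41 and 1.61 FPKM, which also overlapped. FIT, IT, the pair of DP-3 day 1 and D-3, and the pair of DP-3 and D-2 were separate from each other. The log2 fold change against FIT was -3.04 ± 0.19 in D-2 (edgeR adjusted p = 0.000860), -2.12 ± 0.22 in D-3 (adjusted p = 0.0030) and -2.80 ± 0.25 in DP-3 (adjusted p = 0.0038), and all 3 calls held without any 1 library. IT differed from FIT by -0.80 ± 0.25 on the log2 scale (edgeR adjusted p = 0.269). ADRM1, on the other strand of LAMA5, reached 129 FPKM, and the strand setting of the counting is not stated.

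LAMA4, the α4 chain of vessel and mesenchymal basement membranes, was the most abundant α chain in all 18 libraries. It was 12.8, 13.7 and 12.3 FPKM in D-2, 15.8, 14.6 and 19.4 FPKM in D-3, and 17.8, 18.1 and 20.6 FPKM in DP-3. IT had 22.7, 19.3 and 20.1 FPKM and FIT 15.0, 17.5 and 28.2 FPKM, and LAMA4 was called in no comparison. Its share of the summed laminin α FPKM was 84.6 to 88.1% in D-2 and 86.7 to 88.8% in DP-3, but 74.7 to 78.7% in D-3, 64.9 to 75.2% in the IT libraries and 50.9 to 71.3% in fresh tumor. LAMA5 made up 8.5 to 11.1% in D-2 and 26.6 to 45.9% in FIT. LAMA2, the α2 chain of muscle, was 0.249, 0.169 and 0.381 FPKM in D-3, 0.0921, 0.102 and 0.0978 FPKM in D-2 and 0.0449, 0.0703 and 0.0410 FPKM in FIT. It was upregulated in D-3 against D-2 (log2 1.19 ± 0.36, edgeR adjusted p = 0.0379) and against FIT (2.23 ± 0.49, adjusted p = 0.0325). The first call was lost without D-2 replicate 1, 2 or 3 or D-3 replicate 1 or 3 (adjusted p 0.0661 to 0.105). The second was lost without FIT replicate 1, 2 or 3 (adjusted p 0.0598 to 0.0971), and LAMA2 did not pass the filter on low values once a D-3 library was left out.

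The α3 and β3 chains, which occur in the same laminin trimer, were followed together. LAMA3 (ENSG00000053747, chromosome 18, 23689443 to 23956222, plus strand) and LAMB3 (ENSG00000196878, chromosome 1, 209614870 to 209652425, minus strand) were both upregulated in D-3 against D-2. The 250 bases before a RefSeq transcription start of each (GRCh38.p14) are shown because both hold the AP-1 motif TGANTCA, read on both strands, whose matches are in capitals.
LAMA3, chr18:23872770-23873019, plus strand: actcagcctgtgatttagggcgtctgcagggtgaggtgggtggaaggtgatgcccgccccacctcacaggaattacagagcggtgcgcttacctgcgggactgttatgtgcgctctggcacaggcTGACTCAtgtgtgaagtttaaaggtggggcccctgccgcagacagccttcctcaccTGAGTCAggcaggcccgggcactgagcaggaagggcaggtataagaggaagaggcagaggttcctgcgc
LAMB3, chr1:209651375-209651624, minus strand: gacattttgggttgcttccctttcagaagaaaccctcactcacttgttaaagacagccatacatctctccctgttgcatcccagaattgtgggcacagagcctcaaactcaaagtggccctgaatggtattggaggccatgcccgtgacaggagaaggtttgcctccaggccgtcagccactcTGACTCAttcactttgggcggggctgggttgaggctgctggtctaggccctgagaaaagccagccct

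The matches begin at positions -125 and -69 from the LAMA3 start and at -67 from the LAMB3 start, where -1 is the base before the start. Both windows lie inside the deposited span of their gene, the LAMA3 window at the start of its shorter transcript. The LAMB3 window is 1 of 3 for that gene, and the others, which lie further upstream, hold no AP-1 match. Gene-level values do not show which start was used. RefSeq promoter windows of 300 bases, from 250 before to 50 after a start, were matched by symbol for 26 of the 38 members, with 33 windows in all. AP-1 matches were found in 3 of the 33 windows (1 each of ITGA5, LAMA3 and LAMB3), and in 7.71% of all 35116 windows of that length. The TEAD motif GGAATG was in 4 member windows (ITGA10, ITGA5, ITGB1 and LAMA2) and 14.03% of all windows, the RUNX motif TGTGGT in 3 member windows and 13.1%, the SP1 motif GGGCGG in 19 and 45.0%, and the CRE motif TGACGTCA in 0 and 1.85%. The capitalised AP-1 matches overlap no match of the other 4 motifs. A match is a stretch of letters and no measured binding site.

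LAMA3, the α3 chain, measured 0.378, 0.539 and 0.516 FPKM in D-2, 0.885, 0.904 and 0.781 FPKM in FIT and 1.80, 1.28 and 1.72 FPKM in D-3. DP-3 day 1 had 1.16, 1.30 and 1.32 FPKM, IT 1.96, 1.20 and 1.27 FPKM and DP-3 0.763, 1.13 and 0.849 FPKM. D-2 was below every library of the other 5 groups, and DP-3 overlapped with FIT. The log2 change of D-3 against D-2 was 1.49 ± 0.21 (edgeR adjusted p = 0.0032) and held without any 1 library.

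LAMB3, the β3 chain, spanned the widest range of FPKM among the abundant laminins in absolute terms, while LAMA5 spanned the widest as a fold. It measured 29.9, 30.5 and 33.0 FPKM in D-2 and 32.2, 30.5 and 32.4 FPKM in DP-3, overlapping groups that lay below all others. FIT had 58.1, 45.6 and 52.5 FPKM, DP-3 day 1 81.5, 76.4 and 79.0 FPKM and D-3 87.4, 58.6 and 104 FPKM. IT had 64.9 and 61.5 FPKM in replicates 1 and 2 and 209 FPKM in replicate 3. LAMB3 was upregulated in D-3 against D-2 (log2 1.17 ± 0.20, edgeR adjusted p = 0.0059) and downregulated in DP-3 against DP-3 day 1 (-1.05 ± 0.09, adjusted p = 0.0016) and against D-3 (-1.17 ± 0.22, adjusted p = 0.0151). The first 2 calls held without any 1 library, and the last was lost without D-3 replicate 1, D-3 replicate 3 or DP-3 replicate 1 (adjusted p 0.0503 to 0.0596).

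The remaining abundant laminin chains, LAMB1, LAMB2 and LAMC1, were called in no comparison. LAMB1, the β1 chain, was 35.2, 35.2 and 42.0 FPKM in D-3 and 48.3, 51.3 and 52.7 FPKM in D-2 (log2 -0.69 ± 0.11, edgeR adjusted p = 0.0048). FIT had 50.4, 58.3 and 74.0 FPKM, DP-3 day 1 52.7, 54.0 and 57.0 FPKM, DP-3 63.3, 59.0 and 57.0 FPKM and IT 51.9, 51.8 and 33.9 FPKM, so that D-3 lay below the other groups apart from IT replicate 3. LAMB2, the β2 chain of synaptic and kidney basement membranes, went the other way, with 26.4, 24.9 and 26.5 FPKM in D-3 and 12.5, 13.1 and 13.7 FPKM in D-2 (log2 0.73 ± 0.09, adjusted p = 0.0027). Neither gene overlapped between those groups. DP-3 day 1 was near D-3 in LAMB2 with 25.3, 25.04 and 25.6 FPKM, and DP-3 was lower with 16.3, 18.4 and 15.0 FPKM (log2 -0.35 ± 0.08, adjusted p = 0.0244). FIT had 25.1, 23.03 and 30.1 FPKM, against which D-2 was lower by -0.83 ± 0.11 (adjusted p = 0.0035). Of the summed laminin β FPKM, LAMB1 took 52.9 to 54.0% in D-2, 54.6 to 56.6% in DP-3 and 23.6 to 29.7% in D-3, whereas LAMB3 took 32.1 to 33.2%, 28.3 to 31.0% and 49.4 to 60.3%. DP-3 day 1 had 33.0 to 35.3% LAMB1 and 48.9 to 51.1% LAMB3. LAMB3 took 46.7 and 47.1% in IT replicates 1 and 2, 76.6% in IT replicate 3 and 33.5 to 43.5% in FIT, where it was ahead of LAMB1 in replicate 1 only. LAMC1, the γ1 chain found in most laminins, ranged from 40.4 to 68.9 FPKM.

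**Figure D5:**
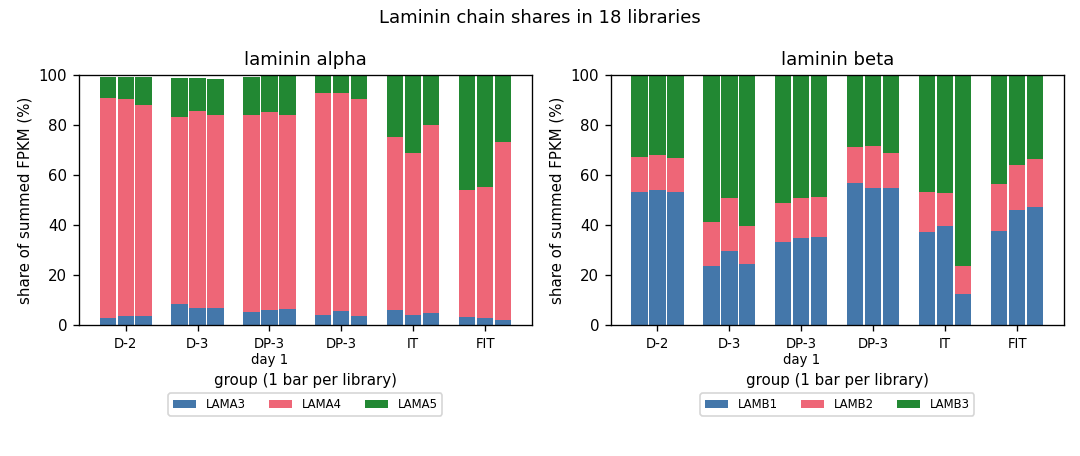
Share of the summed FPKM of laminin α chains (left) and β chains (right) taken by each chain, in percent, with 1 bar per library; LAMA1, LAMA2 and LAMB4 are part of the sums but too low to be drawn. LAMA4 fills most of the left bars and least in FIT, and LAMB3 is the largest part of the right bars in all D-3, DP-3 day 1 and IT libraries and in FIT replicate 1, and LAMB1 is in the others.

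Genes that work with the integrins were counted in 4 lists. Of 41 adhesome genes, the cytoplasmic proteins that link integrins to actin, 38 to 40 were tested per comparison and at most 6 were called. In D-2 against FIT, 3 rose and 3 fell of 40 tested, beside 14.6% of all genes called, and the list median was 0.21 on the log2 scale beside -0.09 for all genes. TLN2, a talin that activates integrins, was upregulated in D-2 against FIT by 1.46, in D-3 by 2.15 and in DP-3 by 1.65 (edgeR adjusted p = 0.0151, kept without FIT replicate 3 only). FERMT1, a kindlin of epithelial cells, was upregulated against FIT in D-2 (1.23) and downregulated in D-3 against D-2 (-1.24). In IT against FIT and in DP-3 against D-2, 0 adhesome genes were called, beside 0.0% and 1.04% of all genes.

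Of 30 non-laminin ligands, 17 to 23 were tested per comparison. D-3 against D-2 had 4 up and 5 down of 22 tested, beside 18.5% of all tested genes called, and DP-3 against DP-3 day 1 had 6 up and 2 down of 20 tested, beside 7.56% of all genes. CCN2 and THBS1, secreted matrix proteins that bind several integrins, were downregulated in D-3 against D-2 by log2 changes of -3.03 and -3.02 (edgeR adjusted p = 0.0013 and 0.00074), from 217 to 31.7 FPKM and from 129 to 18.9 FPKM. Both were upregulated in D-2 against FIT, by 2.33 and 2.28. FN1, fibronectin, was the highest ligand, at a mean of 1471 FPKM in FIT, 1146 FPKM in DP-3, 503 FPKM in DP-3 day 1 and 456 FPKM in D-2. It was upregulated in DP-3 against DP-3 day 1 (1.47, edgeR adjusted p = 0.0068, kept without any 1 library). Against FIT, D-2 was lower in FN1 by -1.55 (adjusted p = 0.0149), a call lost without D-2 replicate 1, 2 or 3.

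Of 24 other basement membrane genes, 15 were tested. D-2 against FIT, where 14.6% of all genes were called, had 1 up (COL4A1, 1.08) and 4 down, led by COL15A1 (-2.99, edgeR adjusted p = 0.0014) and COL18A1 (-2.34, adjusted p = 0.0074). D-3 against D-2, where 18.5% of all genes were called, had 2 up (COL7A1 2.00 and COL15A1 1.25) and 2 down, COL4A1 (-1.45) and COL4A2 (-1.17), the chains of the main type IV collagen. These 9 calls held without any 1 library. COL7A1, the collagen of anchoring fibrils, had a mean of 3.55 FPKM in D-3, 0.743 FPKM in D-2 and 3.27 FPKM in FIT. Of 24 genes for other receptors and proteins associated with them, 21 or 22 were tested and at most 4 were called in a comparison. The most calls were in D-2 against FIT, 1 up and 3 down of 22 tested, beside 14.6% of all genes. BCAM, a receptor for the laminin α5 chain, was 1.12 FPKM in D-3, 0.191 FPKM in D-2 and 0.108 FPKM in DP-3 by group mean. It was upregulated in D-3 against D-2 (2.27, edgeR adjusted p = 0.0088) and downregulated in DP-3 against D-3 (-3.09, adjusted p = 0.0133), the latter lost without D-3 replicate 1 or 3.

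Host and other cell types could contribute to the tumor libraries, and in bulk samples fewer cells of a type and less RNA per cell cannot be told apart. The summed level of 12 skeletal muscle markers was 1.53 to 5.67 FPKM in FIT, 0.75 to 1.31 FPKM in IT and 0.22 to 0.63 FPKM in D-2, with MYH4, CKM, MB and MYL1 below 0.1 FPKM in the FIT mean. MYH1, MYH2, MYLPF and TNNT3 reached 0.1 FPKM in the FIT mean and in no other group mean. The sum of 10 keratinocyte markers was 24.3 to 49.8 FPKM in FIT and 20.5 to 21.5 FPKM in D-2, with KRT1, DSG3, DSC3, DSP and PKP1 below 0.1 FPKM in FIT. KRT5 reached 0.1 FPKM in the FIT mean and in no other group mean. Of 10 fibroblast and mural markers, 9 were found, and their sum was 92.2 to 96.9 FPKM in FIT and 63.9 to 70.6 FPKM in D-2, with DCN below 0.1 FPKM in every group. The sum of 12 endothelial markers was 37.3 to 52.4 FPKM in FIT and 28.1 to 29.8 FPKM in D-2, with KDR, ERG, CLDN5 and SOX18 below 0.1 FPKM in every group. Of 8 platelet markers, 6 were found, with a sum between 0.69 and 2.75 FPKM over all libraries. Between FIT and D-2 the muscle, keratinocyte, fibroblast and endothelial sums differed in the direction of ITGA10 and LAMA5. In D-3, where both genes were also downregulated against FIT, the muscle (1.33 to 2.09 FPKM), keratinocyte (26.2 to 28.5 FPKM) and endothelial (44.6 to 45.9 FPKM) sums overlapped with FIT and the fibroblast sum (51.7 to 58.8 FPKM) did not. In DP-3 both genes were downregulated against FIT as well. There the muscle (0.51 to 0.69 FPKM) and keratinocyte (17.9 to 23.1 FPKM) sums lay below FIT without overlap. The same held for the endothelial (30.0 to 34.1 FPKM) and fibroblast (64.4 to 74.4 FPKM) sums in DP-3. The part of these cell types in the 2 genes' differences was not tested. The genome used for alignment is not stated, nor whether mouse reads were removed.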

How the data were processed

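Per the labels, poly(A) RNA was made into dUTP-marked libraries and sequenced as paired reads. The authors trimmed reads with cutadapt (version 1.9 in the submitters' processing notes), aligned them with HISAT2 (2.0.4) and assembled and quantified transcripts with StringTie (1.3.4d). The genome build, annotation and strand setting are not given in the sources used here. The deposited coordinates of all 38 members overlap genes of the same gene identifier in GENCODE 29, and 8 members have the same ends there. The deposited table holds FPKM, computed by the authors per library with no pooling. It also holds estimated counts per gene, which the authors deposited as whole numbers. For the members these estimated counts were proportional to FPKM, and 0 columns of values went unused. Since the counts are not read pairs, they do not give the counting error directly, and low genes are least precise in FIT replicate 3.

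Each comparison used its own 6 libraries. Genes with at least 0.1 FPKM in at least 3 of 6 libraries were tested with edgeR 4.0.16 (R 4.3.3, TMM scaling, quasi-likelihood F test, Benjamini-Hochberg adjustment over all tested genes), and SE is the log2 fold change divided by the root of F. Calls needed an adjusted p under 0.05 and a 2-fold change. An exact permutation test of 3 against 3 libraries cannot give p below 0.1, so none was used. Members called at least once or with a group mean of 10 FPKM were given library by library, others by their range. From the partner lists, called genes with a group mean of at least 1 FPKM could be named, up to 3 rises and 3 falls per comparison. The members and lists were chosen with earlier results of these data known. 1 laminin gene is counted among the members but not reported here. The fits were tested on simulated data. Alternatives were DESeq2 1.42.0, limma 3.58.1 on log2(FPKM + 0.1) and log2(FPKM + 1), RLE scaling, no filter, a minimum of 1 FPKM, 1 fit of all 18 libraries, a replicate block and leaving out each library. Summaries and plots used Python 3.11.15 and matplotlib 3.10.9.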

Additional observations from a re-analysis of the deposited data

Results flagged for a closer look

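For LAMA3, ITGA7 and LAMB3 the differences of 2 cultures from fresh tumor had opposite signs, and the cultures themselves differed by the edgeR test. LAMA3 was 0.83 above FIT in D-3 and lower than FIT in D-2 (-0.69) on the log2 scale, and D-3 against D-2 gave 1.49 (adjusted p = 0.0032). ITGA7 was 1.07 above FIT in D-3 and lower in D-2 (-0.81) and DP-3 (-0.69), with 1.84 for D-3 against D-2 (adjusted p = 0.0068) and -1.73 for DP-3 against D-3 (adjusted p = 0.0219). LAMB3 was 0.62 above FIT in D-3 and lower in D-2 (-0.58) and DP-3 (-0.58), with 1.17 for D-3 against D-2 (adjusted p = 0.0059) and -1.17 for DP-3 against D-3 (adjusted p = 0.0151). In each of these comparisons with FIT the libraries of the groups did not overlap, but none of these differences from FIT was called. Groups without overlap were common among the members. They were found for 17 of 26 tested members in D-2 against FIT, 17 of 30 in D-3 and 16 of 27 in DP-3. The share over all genes was not computed. Groups of 3 libraries are too small for the check of single libraries that stand apart.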

How the results depend on the processing

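The number of members called changed by over 1.5 times under some settings. The limma scale log2(FPKM + 1) shrinks low genes. It called 3 members in D-2 against FIT, 3 in D-3 against FIT and 2 in DP-3 against FIT. It called 1 in DP-3 against DP-3 day 1, 2 in D-3 against D-2, 0 in DP-3 against D-2 and 2 in DP-3 against D-3. Of all genes it called 905, 739, 438, 494, 1178, 57 and 769, in the same order. The main fits called 2846, 1399, 965, 1571, 3746, 193 and 1887 of all genes. Limma on log2(FPKM + 0.1) called 3 members in DP-3 against FIT (1056 of all genes) and 2 in DP-3 against DP-3 day 1 (2280). A 1 FPKM minimum, with fewer genes tested, gave 3 in DP-3 against DP-3 day 1 (900 genes) and 4 in D-3 against D-2 (1902). DESeq2 gave 3 in IT against FIT (661 of all genes), 2 in DP-3 against D-2 (677) and 7 in DP-3 against D-3 (2765). IT against FIT had 1 call with no filter (ITGAX) and 3 in 1 fit of all 18 libraries (among them ITGAX and ITGA4). Of all genes, those fits called 53 and 553, where the main fit called 0. The cause of these changes was not tested beyond what is said here. With the replicate block the counts were 2 in DP-3 against FIT, 0 in DP-3 against D-2 and 2 in DP-3 against D-3. Of all genes, 164, 15 and 1019 were called with the block, in the same order. Deviations from the group means of libraries with equal replicate numbers correlated at -0.04 to 0.06, beside -0.06 to 0.05 for unlike numbers. With the first group's libraries counted once per comparison, 7 of 24 correlated best with their own number, and the comparisons share libraries. These correlations show no pairing by number, but they cannot tell whether IT and FIT libraries of equal number share an animal. Leaving out each library in turn gave 3 to 7 calls in D-2 against FIT, 3 to 6 in D-3 against FIT, 2 to 5 in DP-3 against FIT, 0 in IT against FIT, 4 to 5 in DP-3 against DP-3 day 1, 4 to 7 in D-3 against D-2, 0 to 1 in DP-3 against D-2 and 0 to 5 in DP-3 against D-3. Of all genes, 1755 to 2980, 240 to 1495, 90 to 1438 and 0 to 1 were called in the comparisons with FIT. In the other comparisons, in the same order, the ranges were 744 to 1585, 2139 to 3519, 3 to 223 and 329 to 2176.

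None of the 33 calls reversed its sign in a setting that could give a value. With DESeq2 and with RLE scaling, 33 of 33 were called. Without 1 library, 132 of 189 fits kept the call, and 16 of the 33 calls were kept in every such fit. ITGA8 in DP-3 against FIT, LAMA2 in D-3 against FIT and ITGAM in D-3 against D-2 had only 3 such fits each. These genes did not pass the filter once a library of the higher group was left out. ITGAM is among the 16 calls on its 3 fits.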

Other observations

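ITGA2 varied between libraries of the same group more than most genes of its level. Its coefficient of variation was 55.7% in DP-3 day 1, where the median over genes of at least 10 FPKM was 4.60%, and 99.4% of those genes varied less. In D-2 it was 36.0% beside a median of 5.03%, and 97.5% of genes varied less. The same share was 98.1% for the D-3 libraries, 97.8% for DP-3, 97.5% for IT and 86.8% for FIT. ITGA6 stood at 96.6% in D-2 and 94.9% in IT, but at 48.4% in DP-3 day 1 and 12.4% in D-3. ITGB1 stood at 93.3% in DP-3 day 1, and LAMB3 at 97.8% in IT. No test was made of these spreads, and what moves with them was not tested.

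ITGAX and its β partner ITGB2 were on different scales in these libraries, with ITGAX at up to 2.70 FPKM and ITGB2 at or below 0.0927 FPKM. LAMB3 likewise was far above its trimer partner LAMA3, which reached at most 1.96 FPKM.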
